A study of Homo sapiens with 12 samples.

Results

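The comparison described here sets lung adenocarcinoma cells kept in suspension for 7 days against the same lines kept in suspension for 1 day. It uses the 4 libraries titled detached_7 day and the 4 titled detached_1 day, 8 of the 12 libraries of the series, chosen by their titles and paired by cell line. The 4 attached libraries of the series enter no value given here except in 1 alternative fit. Cells were taken at day 7 or at day 1 after trypsin detachment and plating on an ultra-low attachment surface. Both states were grown in RPMI-1640 medium with serum, and both carry the effects of trypsin and replating. The 4 lines, NCI-H2228, NCI-H2009, HCC4006 and LC-2/ad, were established from human lung adenocarcinomas. LC-2/ad is known for a RET fusion and NCI-H2228 for an ALK fusion. Each line gave 1 library per day, so the lines served as the replicates (n = 4), a difference within a line has no test, and age of the culture, cell density and medium depletion cannot be told apart from time in suspension.

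Epithelial cells normally draw survival and growth signals from the matrix they sit on. Cells in suspension lose those signals, tend to gather into clusters, and must keep up energy and lipid supply without spreading. Sterol and fatty acid synthesis is switched on by SREBP transcription factors when cell sterol is low, and the ID genes are short-lived readouts of BMP signals, which act through SMAD proteins.

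Libraries held between 31134400 and 41882000 estimated counts. The epithelial markers EPCAM, CDH1, KRT7, KRT8, KRT18, KRT19 and ELF3 were present in the 8 libraries, the lowest value being 16.2 TPM (transcript abundance scaled by length and by library total) for CDH1. Of the markers of other cell types, 10 of 15 for leukocytes, 4 of 10 for fibroblasts and 4 of 9 for endothelium never reached 1 TPM. The day 1 library of NCI-H2009 stood apart. The nuclear RNA MALAT1 was at 91.8 TPM there and between 926 and 2257 TPM in the other 7 libraries. Among genes tested, 36.2% differed at least 2-fold between days in NCI-H2009, against 12.4% to 18.8% in the other lines. The difference also followed gene length in that line, with medians from -0.45 (log2) in the shortest of 4 equal bins of protein-coding genes to 0.43 in the longest. In the other lines the bin medians lay between -0.09 and 0.04. List medians are therefore also given without NCI-H2009 where leaving it out moved them by over 1.5 times, and the part of this library in the other results was not tested. On the TPM scale the median of all genes was 0.44 (log2) higher at day 7 in NCI-H2009 and within 0.07 of 0 in the other lines, while log2 CPM (counts scaled by library size and TMM factor) had medians of 0.02 or less. Directions are taken from log2 CPM, and TPM values show levels. In bulk samples, fewer cells of a type and less RNA per cell cannot be told apart.

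**Figure D1:**
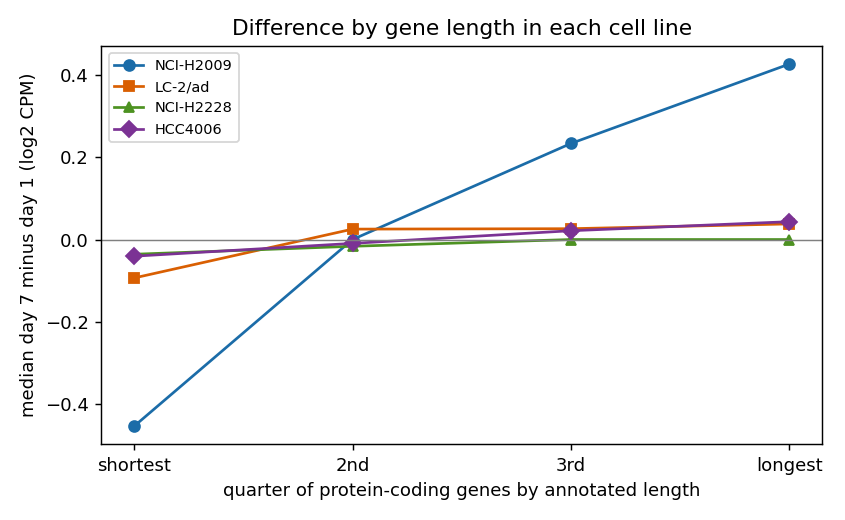
Median difference of log2 CPM, day 7 minus day 1, in 4 equal bins of protein-coding genes ordered by annotated length, with 1 line per cell line. NCI-H2009 runs from -0.45 to 0.43, and the other lines stay between -0.09 and 0.04.

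No gene passed the test shared by the 4 lines. Of 16336 genes, 0 (0.0%) had an adjusted p under the threshold of 0.05 in edgeR's quasi-likelihood test with the cell line as a block, and the smallest adjusted p was 0.184. At an unadjusted p under 0.05 stood 652 genes higher (3.99%) and 629 lower (3.85%) at day 7. A single list member at this level on 1 side is near these shares in the lists below. Higher in each of the 4 lines were 1576 genes (9.65%), and lower in each were 1434 (8.78%). At least 2-fold in each line were 21 genes higher (0.129%) and 32 lower (0.196%). DESeq2's Wald test on the same counts, run as an alternative, called 92 genes (0.563%), 36 higher and 56 lower at day 7. All 92 had an edgeR p under 0.05 before adjustment and 89 had 1 sign in the 4 lines. Every gene named below therefore missed the adjusted threshold of the chosen test, and is described by its values. An exact sign-flip test over 4 pairs cannot go below p = 0.125 for a single gene.

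Genes of cholesterol synthesis and uptake had line medians below 0 in each line. The median of their fitted values was -0.87 (log2) over 23 genes, against 0.01 over all genes, and 22 of the 23 had a fitted value below 0. Of the 23, 0 passed, 13 were lower and 0 higher at an unadjusted p under 0.05, and 10 were lower in each of the 4 lines. The line medians were -1.72 for NCI-H2228, -1.10 for NCI-H2009, -0.17 for HCC4006 and -0.39 for LC-2/ad. Without NCI-H2009 the median was -0.62, where that of the mesenchymal list was lower (-0.79), and 11 of the 23 were lower in each of the other lines. DESeq2 called 2 members.

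The promoters of these genes are shown first, for the motif that sterol genes are known to share with many others. SREBPs act together with NF-Y, the factor that binds CCAAT boxes. RefSeq promoters (GRCh38.p14, 250 bases before to 50 after the start) were found for 17 of the 23 genes, and CCAAT, searched on both strands as CCAAT or ATTGG, was present in 15 of 17 (88.2%), against 34.6% of all 35116 promoters. The letters TCACNCCAC, a form of the sterol response element chosen after the data were seen, were in 1 of the 17 and in 1.13% of all promoters. INSIG1 and SCD, a sterol gene and a fatty acid gene low at day 7, are printed with the CCAAT matches in capitals. P4HA1, a target of the hypoxia factor HIF, is printed with the HIF core ACGTG (or CACGT on the other strand) in capitals. LAMP1, a lysosomal membrane protein, is printed with the E-box CACGTG, the core bound by the TFEB family, in capitals. A match describes these letters and is not evidence of binding.
INSIG1 promoter, chr7:155297628-155297927, plus strand: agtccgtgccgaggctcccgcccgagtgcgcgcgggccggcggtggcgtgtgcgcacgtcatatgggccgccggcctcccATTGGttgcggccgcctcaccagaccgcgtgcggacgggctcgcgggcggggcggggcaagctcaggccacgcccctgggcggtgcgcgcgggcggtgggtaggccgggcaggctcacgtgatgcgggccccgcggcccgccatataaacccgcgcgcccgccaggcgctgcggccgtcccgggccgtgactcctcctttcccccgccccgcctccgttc
SCD promoter, chr10:100346983-100347282, plus strand: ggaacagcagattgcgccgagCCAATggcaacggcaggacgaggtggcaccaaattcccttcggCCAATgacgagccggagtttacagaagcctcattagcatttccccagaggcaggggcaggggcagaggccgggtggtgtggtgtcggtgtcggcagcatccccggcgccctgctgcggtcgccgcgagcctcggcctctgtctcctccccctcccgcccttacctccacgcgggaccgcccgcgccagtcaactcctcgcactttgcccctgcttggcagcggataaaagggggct
P4HA1 promoter, chr10:73096817-73097116, minus strand: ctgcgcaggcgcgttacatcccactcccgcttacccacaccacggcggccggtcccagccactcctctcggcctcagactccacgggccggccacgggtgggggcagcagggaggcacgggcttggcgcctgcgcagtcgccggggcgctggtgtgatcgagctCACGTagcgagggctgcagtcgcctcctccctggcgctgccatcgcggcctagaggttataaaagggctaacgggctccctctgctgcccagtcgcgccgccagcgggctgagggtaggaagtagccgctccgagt
LAMP1 promoter, chr13:113296989-113297288, plus strand: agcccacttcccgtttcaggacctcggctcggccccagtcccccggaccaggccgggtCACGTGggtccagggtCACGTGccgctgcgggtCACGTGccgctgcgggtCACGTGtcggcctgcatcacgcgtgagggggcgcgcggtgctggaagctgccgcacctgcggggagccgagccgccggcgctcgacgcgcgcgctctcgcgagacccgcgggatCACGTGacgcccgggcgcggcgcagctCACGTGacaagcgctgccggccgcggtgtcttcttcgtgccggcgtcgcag

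INSIG1 holds SREBP in the endoplasmic reticulum and is itself switched on by it. INSIG1 stood at 13.1 TPM in NCI-H2228, 9.85 TPM in NCI-H2009, 68 TPM in HCC4006 and 14.4 TPM in LC-2/ad at day 7, against 160.1, 52.5, 98.8 and 27.8 TPM in the same lines at day 1. It was lower at day 7 in each line, and the ranges overlapped, with HCC4006 at day 7 above NCI-H2009 and LC-2/ad at day 1. The fitted log2 fold change was -2.08 ± 0.58 (SE, edgeR adjusted p = 0.622) and -1.72 without NCI-H2009. SQLE, the epoxidase that commits squalene to sterols, stood at 15.8 TPM in NCI-H2228, 32.6 TPM in NCI-H2009, 24.4 TPM in HCC4006 and 35 TPM in LC-2/ad at day 7, against 53.1, 67.2, 27.1 and 107 TPM in the same lines at day 1. Its fitted value was -1.42 ± 0.32, and the difference in HCC4006, -0.20, was far smaller than in the other lines. IDI1, which isomerises isopentenyl diphosphate, averaged 42.8 ± 21.7 TPM at day 7 and 85 ± 55.2 TPM at day 1 (SD, n = 4 each), with a fitted log2 fold change of -1.06 ± 0.28. MVD, the decarboxylase that makes isopentenyl diphosphate, averaged 51.5 ± 19.2 TPM at day 7 and 86 ± 29.9 TPM at day 1, with -0.96 ± 0.26. Both were lower at day 7 in each of the 4 lines.

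Fatty acid synthesis had a median of -0.50 over 12 genes, of which 9 were below 0, 5 were lower and 0 higher at an unadjusted p under 0.05, and 4 were lower in each line. HCC4006 had a list median of -0.04, and NCI-H2228 one of -1.35, and the fitted median was -0.30 without NCI-H2228. SCD, the desaturase that makes oleate, stood at 58.3 TPM in NCI-H2228, 36.8 TPM in NCI-H2009, 54 TPM in HCC4006 and 9.11 TPM in LC-2/ad at day 7, against 760.3, 106, 79.7 and 29.3 TPM in the same lines at day 1. It was lower at day 7 in each line, most in NCI-H2228 (-3.82) and least in HCC4006 (-0.55). Its fitted log2 fold change was -2.06 ± 0.50 (edgeR adjusted p = 0.622). FASN, the fatty acid synthase, stood at 1.56 TPM in NCI-H2228, 2.9 TPM in NCI-H2009, 2.18 TPM in HCC4006 and 3.16 TPM in LC-2/ad at day 7, against 7.88, 8.86, 4.56 and 4.29 TPM in the same lines at day 1. All 4 day 7 values lay below all 4 day 1 values, at low levels, and the fitted value was -1.63 ± 0.37. FADS2, a desaturase of polyunsaturated fatty acids, averaged 61.7 ± 50.7 TPM at day 7 and 215 ± 287 TPM at day 1 with a fitted value of -1.68 ± 0.47. SREBF1, the gene of the SREBP that drives this set, averaged 57.5 ± 31.2 TPM at day 7 and 102 ± 52.3 TPM at day 1 with -1.02 ± 0.30, or -0.67 without NCI-H2228. DESeq2 called 3 of the 12 members.

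**Figure D2:**
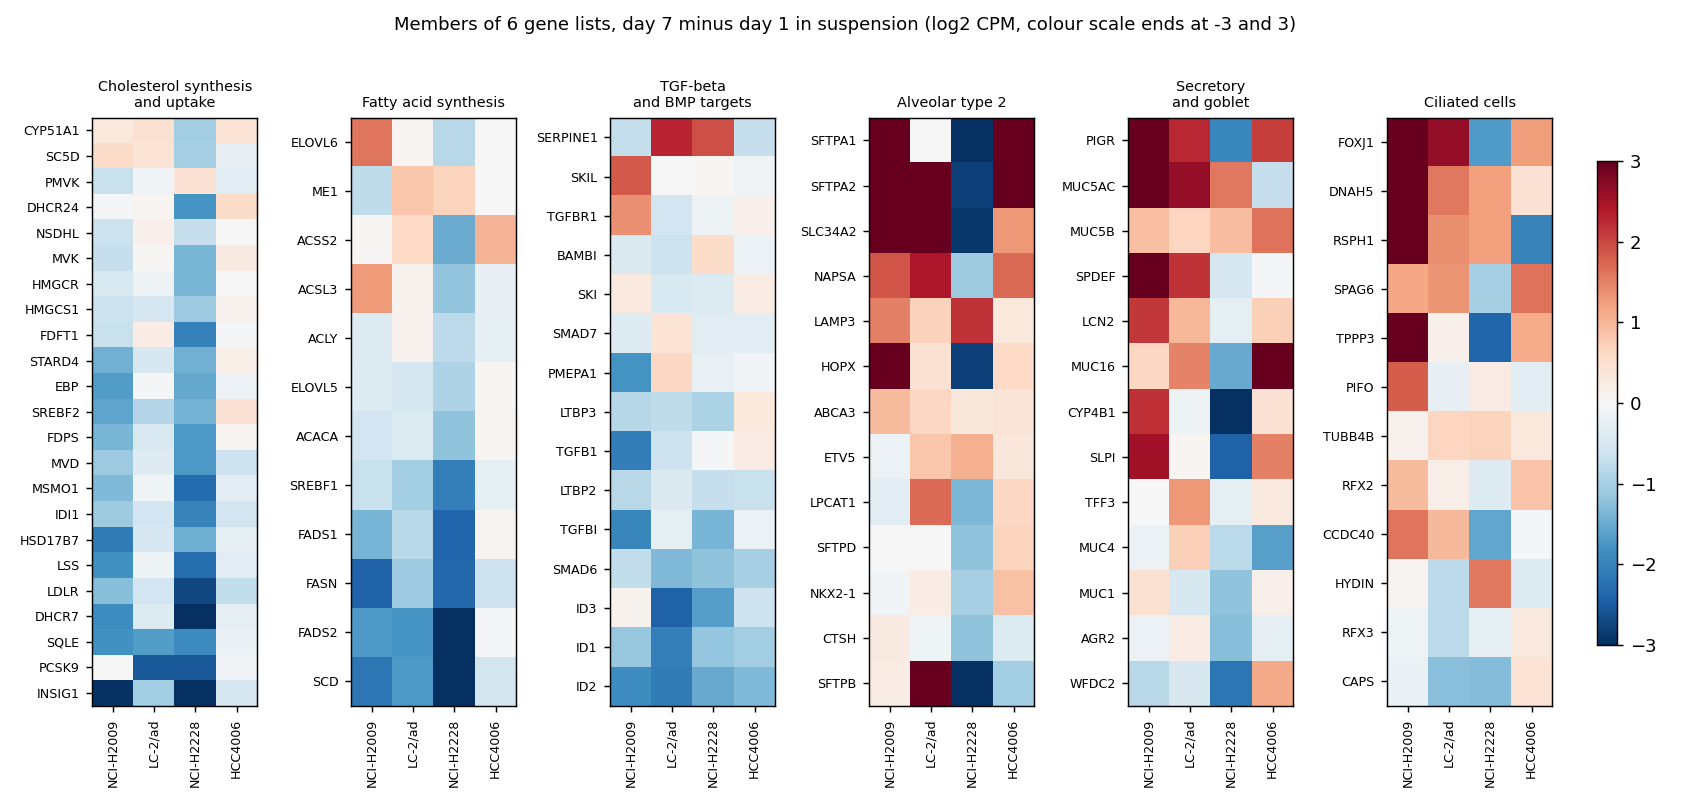
Difference of log2 CPM, day 7 minus day 1, for each tested member (rows) of 6 gene lists in each cell line (columns). Blue is lower and red higher at day 7, and the scale ends at -3 and 3. The sterol and fatty acid lists are mostly blue and palest in HCC4006, and the alveolar type 2, secretory and ciliated lists are mostly red except in NCI-H2228.

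Fatty acid oxidation and PPAR targets had a median of -0.03 over 15 genes (0.17 without NCI-H2009), with 2 higher and 0 lower at an unadjusted p under 0.05. Those 2 code for enzymes that set the choice between fatty acids and glucose as fuel. PDK4, which switches off pyruvate dehydrogenase, stood at 0.838 TPM in NCI-H2228, 37.5 TPM in NCI-H2009, 6.39 TPM in HCC4006 and 5.47 TPM in LC-2/ad at day 7, against 0.674, 4.47, 1.73 and 1.98 TPM in the same lines at day 1. The fitted log2 fold change was 1.68 ± 0.43, or 1.24 without NCI-H2009, and the difference in NCI-H2228 was 0.20. CPT1A, which loads fatty acids into mitochondria, stood at 9.56 TPM in NCI-H2228, 8.14 TPM in NCI-H2009, 7.74 TPM in HCC4006 and 7.78 TPM in LC-2/ad at day 7, against 4.1, 2.48, 7.39 and 1.6 TPM in the same lines at day 1. All 4 day 7 values lay above all 4 day 1 values on the TPM scale, while on log2 CPM the difference in HCC4006 was -0.17. The fitted value was 1.51 ± 0.51.

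CST6, TFF1 and IGFBP7, which code for secreted proteins, were among the 12 lower genes that the rule for single genes took. These had the smallest unadjusted p among protein-coding genes with 1 sign in the 4 lines and a mean of at least 5 TPM on the higher day. CST6, the secreted protease inhibitor cystatin M, lies on chromosome 11 from 66012008 to 66013505 (GRCh38, as are all coordinates of the deposited table). CST6 stood at 8.46 TPM in NCI-H2228, 65.7 TPM in NCI-H2009, 198 TPM in HCC4006 and 897 TPM in LC-2/ad at day 7, against 32.3, 145, 729 and 3866 TPM in the same lines at day 1. It was lower at day 7 in each line by a similar amount, between -2.21 and -1.77 on log2 CPM although the levels of the lines differed widely, so that the ranges of the 2 days overlapped. The fitted log2 fold change was -1.95 ± 0.20 (edgeR adjusted p = 0.184), the smallest adjusted p of all genes. TFF1, a trefoil peptide secreted with mucus, stood at 7.44 TPM in NCI-H2228, 0 TPM in NCI-H2009, 2.62 TPM in HCC4006 and 0 TPM in LC-2/ad at day 7, against 93.9, 1.16, 26.3 and 2.85 TPM in the same lines at day 1. It was listed at 0 in 2 of the day 7 libraries, and the fitted value was -3.68 ± 0.55 (edgeR adjusted p = 0.309). IGFBP7, a secreted binding protein of insulin-like growth factors, stood at 11.7 TPM in NCI-H2228, 5.32 TPM in NCI-H2009, 18.7 TPM in HCC4006 and 51.8 TPM in LC-2/ad at day 7, against 36.9, 7.76, 69.9 and 381 TPM in the same lines at day 1. LC-2/ad held the highest level on both days, the ranges of the 2 days overlapped, and the fitted value was -1.97 ± 0.31 (edgeR adjusted p = 0.559). IGFBP7 overlaps POLR2B on the other strand, and strand use is not given in the sources used here.

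Targets of TGF-beta and BMP had a median of -0.57 over 15 genes, with 6 lower and 0 higher at an unadjusted p under 0.05 and 5 lower in each line. Without NCI-H2009 the median was -0.21, and 6 genes were lower in each of the other lines. The lowest members were ID genes, which code for inhibitors of basic helix-loop-helix factors and are direct BMP targets. ID2, on chromosome 2 from 8678845 to 8684461, stood at 18.6 TPM in NCI-H2228, 11.8 TPM in NCI-H2009, 45 TPM in HCC4006 and 43.4 TPM in LC-2/ad at day 7, against 45.8, 28.9, 113 and 177 TPM in the same lines at day 1. It was lower in each line, between -2.09 and -1.33, with overlap across lines, and had a fitted value of -1.70 ± 0.22 (edgeR adjusted p = 0.309). ID1, on chromosome 20 from 31605283 to 31606515, stood at 373 TPM in NCI-H2228, 179 TPM in NCI-H2009, 408 TPM in HCC4006 and 184 TPM in LC-2/ad at day 7, against 791, 253, 841 and 720.1 TPM in the same lines at day 1. The difference was -2.04 in LC-2/ad and between -1.17 and -1.03 in the other lines, with a fitted value of -1.34 ± 0.24 (edgeR adjusted p = 0.622). SMAD6, an inhibitory SMAD that BMP signals switch on, averaged 3.17 ± 2.19 TPM at day 7 and 5.68 ± 3.51 TPM at day 1 with a fitted value of -1.08 ± 0.27, lower in each line. ID3 averaged 70.9 ± 59.98 TPM at day 7 and 156 ± 102 TPM at day 1 with -1.16 ± 0.41 (-0.73 without LC-2/ad), and was lower in LC-2/ad, NCI-H2228 and HCC4006 but not in NCI-H2009 (0.11).

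**Figure D3:**
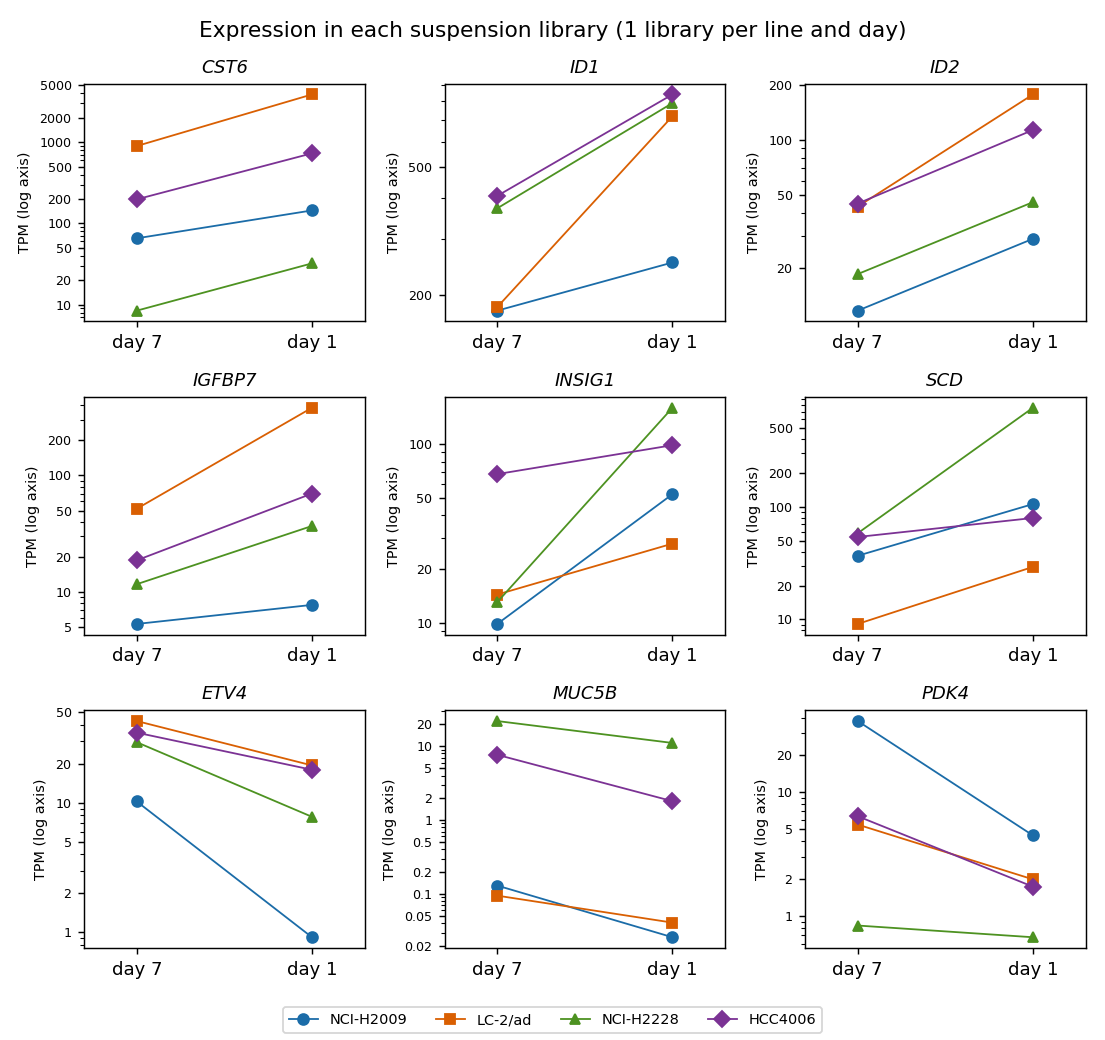
TPM of 9 genes in each library on log axes, day 7 on the left and day 1 on the right, with a line joining the 2 libraries of each cell line. CST6, ID1, ID2, IGFBP7, INSIG1 and SCD slope up toward day 1 in each line, and ETV4, MUC5B and PDK4 slope down.

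Matrix and mesenchymal genes were also lower by median, below 0 in each line. Summed TPM of the matrix list was higher at day 7 in NCI-H2009, LC-2/ad and HCC4006. It was lower in NCI-H2228, at 1004 against 1707 TPM at day 1. In NCI-H2009 the sum was 1039 against 805 TPM at day 1, on a scale where the median of all genes was also 0.44 (log2) higher at day 7. The mesenchymal sum was higher at day 7 in HCC4006, at 4712 against 2911 TPM, and lower in the other lines. The basement membrane and matrix list had a median of -0.53 over 20 genes, with 5 lower and 0 higher at an unadjusted p under 0.05 and 5 lower in each line. The laminin chain LAMB1 averaged 7.99 ± 2.66 TPM at day 7 and 11.2 ± 4.62 TPM at day 1 (-0.67 ± 0.20), and the collagen IV chains COL4A2 (-0.59 ± 0.19) and COL4A1 (-0.93 ± 0.35, and -0.59 without LC-2/ad) were lower with it in each line. COL1A1, a collagen of stroma that is also a fibroblast marker, had a fitted value of -0.90 ± 0.29 (-0.54 without NCI-H2228) and stood mainly in NCI-H2228, at 39.2 TPM at day 7 and 149.6 TPM at day 1. The mesenchymal list had a median of -0.74 over 14 genes, and -0.79 without NCI-H2009, with 7 lower and 0 higher at an unadjusted p under 0.05. LOXL2, a collagen cross-linking oxidase, stood at 68.9 TPM in NCI-H2228, 35.8 TPM in NCI-H2009, 7 TPM in HCC4006 and 5.44 TPM in LC-2/ad at day 7, against 97.7, 99.4, 27.5 and 7.35 TPM in the same lines at day 1. It was lower in each line, with a fitted value of -1.34 ± 0.34. SNAI1, a repressor of E-cadherin, stood at 0.431 TPM in NCI-H2228, 2.9 TPM in NCI-H2009, 0.429 TPM in HCC4006 and 3.28 TPM in LC-2/ad at day 7, against 1.02, 28.9, 0.64 and 7.81 TPM in the same lines at day 1, so that its fitted value of -2.04 ± 0.62 was -1.15 without NCI-H2009. S100A4, a calcium-binding protein linked to cell motility, had -1.19 ± 0.31. FAP, a fibroblast surface protease, was listed at 0 on both days in NCI-H2009 and HCC4006. The fibroblast marker list, of which 5 of 10 genes were tested, had a median of -0.90, and -1.98 in NCI-H2228; its members summed to between 8.68 and 47.4 TPM at day 7 and between 11.7 and 189.7 TPM at day 1. The leukocyte list, 7 of 15 tested, had a median of -1.07, and -2.04 in NCI-H2228, with summed levels between 18.9 and 121 TPM at day 7 and between 34.3 and 171 TPM at day 1. The endothelial list, 5 of 9 tested, had a median of 0.53, and 0.08 without NCI-H2009, with sums between 22.2 and 88.7 TPM at day 7 and between 23.9 and 92.4 TPM at day 1. The highest leukocyte markers were CD79A (up to 106 TPM), CD14 (up to 91.1 TPM) and CD68 (up to 59.3 TPM), while PTPRC reached at most 0.834 TPM. The fibroblast and mesenchymal lists overlap. They share PDGFRB, which was not tested, and the tested member with the lowest fitted value of each list (-2.23), so their medians are not separate observations. The part of these marker lists in the matrix and mesenchymal values was not tested.

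Genes of oxygen and sugar handling were lower by median, mainly in NCI-H2009. HIF targets had a median of -0.58 over 18 genes (17 below 0, 4 lower at an unadjusted p under 0.05). Glycolysis had -0.54 over 16 genes (15 below 0, 1 lower at that level, near the 3.85% of all genes). Without NCI-H2009 the medians were -0.10 and -0.16. P4HA1, a collagen prolyl hydroxylase subunit, stood at 40.1 TPM in NCI-H2228, 44 TPM in NCI-H2009, 113 TPM in HCC4006 and 22.4 TPM in LC-2/ad at day 7, against 88.4, 87.1, 163 and 27.1 TPM in the same lines at day 1. It was lower at day 7 in each line, with a fitted value of -0.94 ± 0.26 and -0.71 without NCI-H2009. SLC16A3, the lactate exporter, stood at 43.1 TPM in NCI-H2228, 48.1 TPM in NCI-H2009, 57.6 TPM in HCC4006 and 51.7 TPM in LC-2/ad at day 7, against 58.8, 80.5, 87.9 and 102 TPM in the same lines at day 1. All 4 day 7 values lay below all 4 day 1 values, and the fitted value was -0.86 ± 0.24. Of the HIF targets with a promoter in the RefSeq table, 9 of 14 (64.3%) held the HIF core, against 21.4% of all promoters.

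Lists of stress and recycling genes had medians between -0.28 and 0.12. In the cytosolic heat shock list (median -0.18 over 13 genes, -0.27 without NCI-H2009) 2 genes were lower at an unadjusted p under 0.05, the inducible chaperones HSPA1A and HSPA1B, near-identical copies whose counts cannot be split with certainty. HSPA1A stood at 105 TPM in NCI-H2228, 315 TPM in NCI-H2009, 133 TPM in HCC4006 and 193 TPM in LC-2/ad at day 7, against 274, 438, 226 and 436 TPM in the same lines at day 1. It was lower in each line with a fitted value of -1.16 ± 0.22, and HSPA1B had -1.13 ± 0.23. Lysosome genes had a median of -0.28 over 22 genes, 18 of them below 0, with 4 lower and 0 higher at an unadjusted p under 0.05 and 7 lower in each line. LAMP1 stood at 26 TPM in NCI-H2228, 71 TPM in NCI-H2009, 16.7 TPM in HCC4006 and 16.8 TPM in LC-2/ad at day 7, against 32.9, 81, 20.7 and 27.7 TPM in the same lines at day 1. It was lower in each line, between -0.84 and -0.29 on log2 CPM, with overlap across lines, and had a fitted value of -0.59 ± 0.19. The E-box was in 7 of the 14 lysosome promoters found, against 7.26% of all, with 6 matches in that of LAMP1. Autophagy had a median of -0.13 over 18 genes, with 3 lower at an unadjusted p under 0.05, among them ULK1, the kinase that starts autophagy (-0.94 ± 0.29). The p53 target, NRF2 target and NF-kappaB lists had medians of 0.12, 0.02 and 0.04, and of -0.06, 0.31 and -0.01 without NCI-H2009. The ATF4 list had a median of -0.15 but ran from -1.82 in NCI-H2009 to 0.99 in NCI-H2228, and was 0.33 without NCI-H2009.

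**Figure D4:**
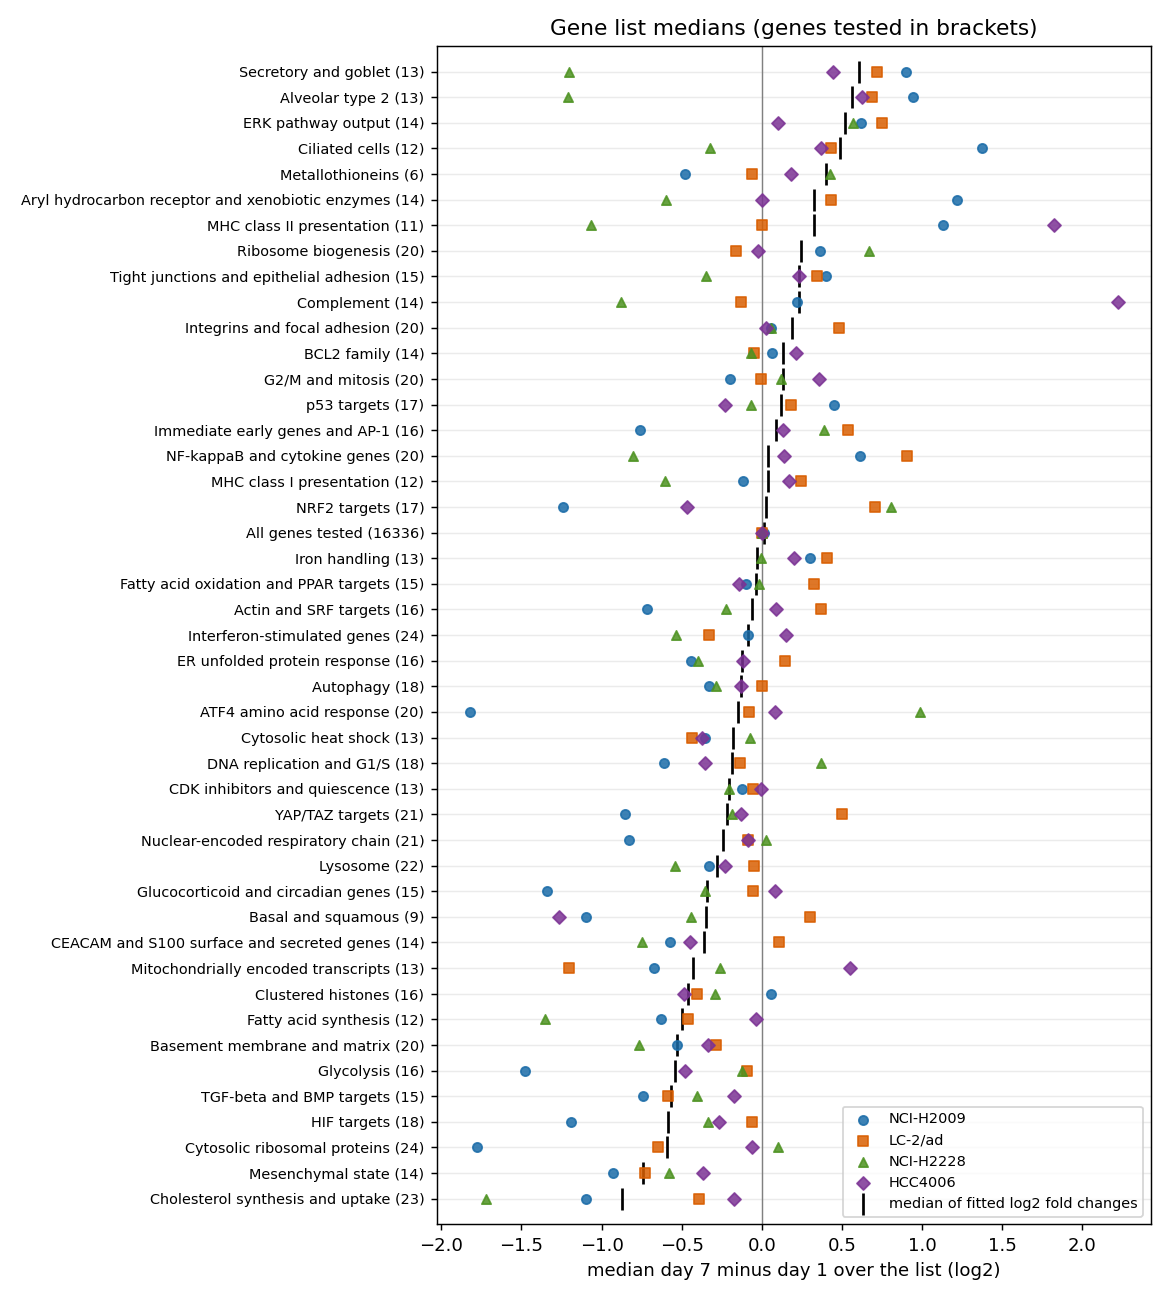
Median difference of each gene list, day 7 minus day 1 (log2), without the marker lists of other cell types. Each cell line has a symbol, and a black bar gives the median of the fitted log2 fold changes. Genes tested stand in brackets. Of the lists drawn, cholesterol synthesis lies at the bottom at -0.87, and secretory and alveolar type 2 genes lie at the top with NCI-H2228 on the other side of 0. The leukocyte (-1.07) and fibroblast (-0.90) marker lists, not drawn, had lower medians.

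The lists of ERK pathway output and of differentiated lung epithelium had medians above 0, with no member passing the test. The ERK output list had a median of 0.52 over 14 genes (12 above 0), with 2 higher and 0 lower at an unadjusted p under 0.05, and the line medians were between 0.10 in HCC4006 and 0.75 in LC-2/ad. ETV4, a transcription factor induced by ERK, lies on chromosome 17 from 43527844 to 43579620 and stood at 29.4 TPM in NCI-H2228, 10.2 TPM in NCI-H2009, 34.8 TPM in HCC4006 and 42.8 TPM in LC-2/ad at day 7, against 7.8, 0.916, 18 and 19.4 TPM in the same lines at day 1. It was higher at day 7 in each line, the fitted value being 1.58 ± 0.33 (edgeR adjusted p = 0.622) and 1.25 without NCI-H2009. ETV4 overlaps DHX8 on the other strand. PHLDA1, an ERK-induced gene, averaged 61.8 ± 42.7 TPM at day 7 and 30.2 ± 14.1 TPM at day 1 with 0.60 ± 0.21. Among immediate early genes (median 0.09 over 16 genes, 0.33 without NCI-H2009), 3 were higher and 1 lower at an unadjusted p under 0.05. KLF6, a zinc finger factor, stood at 139 TPM in NCI-H2228, 81.6 TPM in NCI-H2009, 87.5 TPM in HCC4006 and 83.5 TPM in LC-2/ad at day 7, against 73.1, 48.2, 48.5 and 39.3 TPM in the same lines at day 1. All 4 day 7 values lay above all 4 day 1 values, with a fitted value of 0.66 ± 0.21. JUN had 0.84 ± 0.34 (0.54 without LC-2/ad), and JUNB was on the other side of 0 with -0.64 ± 0.24 (-0.41 without NCI-H2009).

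The secretory and goblet list had a median of 0.61 over 13 genes and the alveolar type 2 list one of 0.56 over 13, each with 3 higher and 0 lower at an unadjusted p under 0.05. NCI-H2228 had medians of -1.20 and -1.21, against 0.44 to 0.94 for both lists in the other lines. Without NCI-H2009 the secretory median was 0.09. Of the 17 genes on the secretory list, 4 were not tested, among them SCGB3A1 at up to 4338 TPM. TFF1, lower at day 7 in each line, is not on that list. MUC5B, a gel-forming airway mucin, stood at 21.8 TPM in NCI-H2228, 0.13 TPM in NCI-H2009, 7.63 TPM in HCC4006 and 0.095 TPM in LC-2/ad at day 7, against 11, 0.026, 1.8 and 0.041 TPM in the same lines at day 1. It was higher at day 7 in each line, but NCI-H2009 and LC-2/ad held close to none of it, and the fitted value was 1.15 ± 0.25. NAPSA, the aspartic protease that processes surfactant protein B, stood at 94.4 TPM in NCI-H2228, 18 TPM in NCI-H2009, 705 TPM in HCC4006 and 26.1 TPM in LC-2/ad at day 7, against 179, 3.22, 221 and 4.29 TPM in the same lines at day 1. It was higher in 3 lines and lower in NCI-H2228, with 1.29 ± 0.56, and 2.0 without NCI-H2228. LAMP3, a protein of lamellar bodies, averaged 12.4 ± 20.3 TPM at day 7 and 3.71 ± 4.39 TPM at day 1 (1.20 ± 0.37, and 0.77 without NCI-H2228), and ABCA3, the lipid pump of lamellar bodies, averaged 10.6 ± 7.46 TPM at day 7 and 6.48 ± 6.4 TPM at day 1 (0.56 ± 0.21). Both were higher in each line. Ciliated cell genes had a median of 0.48 over 12 genes, and 0.06 without NCI-H2009. FOXJ1, the master factor of motile cilia, stood at 0 TPM in NCI-H2228, 32.7 TPM in NCI-H2009, 0.077 TPM in HCC4006 and 5.19 TPM in LC-2/ad at day 7, against 0.062, 0.178, 0.015 and 0.762 TPM in the same lines at day 1, so its level was in NCI-H2009 and LC-2/ad. DNAH5, an outer arm dynein, was higher in each line with 1.64 ± 0.48, and 1.07 without NCI-H2009.

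Besides ETV4 and MUC5B, the rule for single genes took these on the higher side. UQCC3, an assembly factor of respiratory complex III, stood at 20.9 TPM in NCI-H2228, 12.5 TPM in NCI-H2009, 16.4 TPM in HCC4006 and 21.4 TPM in LC-2/ad at day 7, against 6, 2.71, 7.67 and 5.17 TPM in the same lines at day 1. All 4 day 7 values lay above all 4 day 1 values, and the fitted value was 1.53 ± 0.26 (edgeR adjusted p = 0.559). UQCC3 overlaps LBHD1 on the other strand. SOWAHB stood at 1.87 TPM in NCI-H2228, 74.5 TPM in NCI-H2009, 3.94 TPM in HCC4006 and 14.9 TPM in LC-2/ad at day 7, against 0.986, 6.75, 1.52 and 2.26 TPM in the same lines at day 1. NCI-H2009 carried the largest level and difference, and the fitted value was 1.97 ± 0.38, or 1.64 without that line. NEBL, a nebulin-like actin-binding protein (1.46 ± 0.28), TTC4, a co-chaperone of HSP90 (1.11 ± 0.22), PRPSAP1, a regulator of phosphoribosyl pyrophosphate synthesis (0.88 ± 0.19), SH3BGRL2 (1.17 ± 0.24), ZNF496 (1.29 ± 0.27) and ZNF629 (1.21 ± 0.26) were higher in each line. PRPSAP1 overlaps SPHK1 (up to 108 TPM) and NEBL overlaps NEBL-AS1 (up to 4.18 TPM), each on the other strand. VPS4A, an ATPase of membrane scission (0.99 ± 0.20), and AC026464.4 (1.08 ± 0.21) overlap on 1 strand and are uncertain. On the lower side, TMEM45A had -2.93 ± 0.49, AOAH, an enzyme that inactivates lipopolysaccharide, had -2.36 ± 0.45, and CES1, a carboxylesterase, had -2.45 ± 0.52. AOAH was at 0 TPM at day 7 and 0.032 TPM at day 1 in HCC4006, so its sign in that line is uncertain. CES1 was at 0.019 TPM in NCI-H2009 and 0.156 TPM in LC-2/ad at day 7, and its highest level was 19.7 TPM, in NCI-H2228 at day 1. The hormone gene CGB5 (-2.72 ± 0.46) and the histone gene H2AC19 (-1.21 ± 0.20) have near-identical copies and are uncertain.

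**Figure D5:**
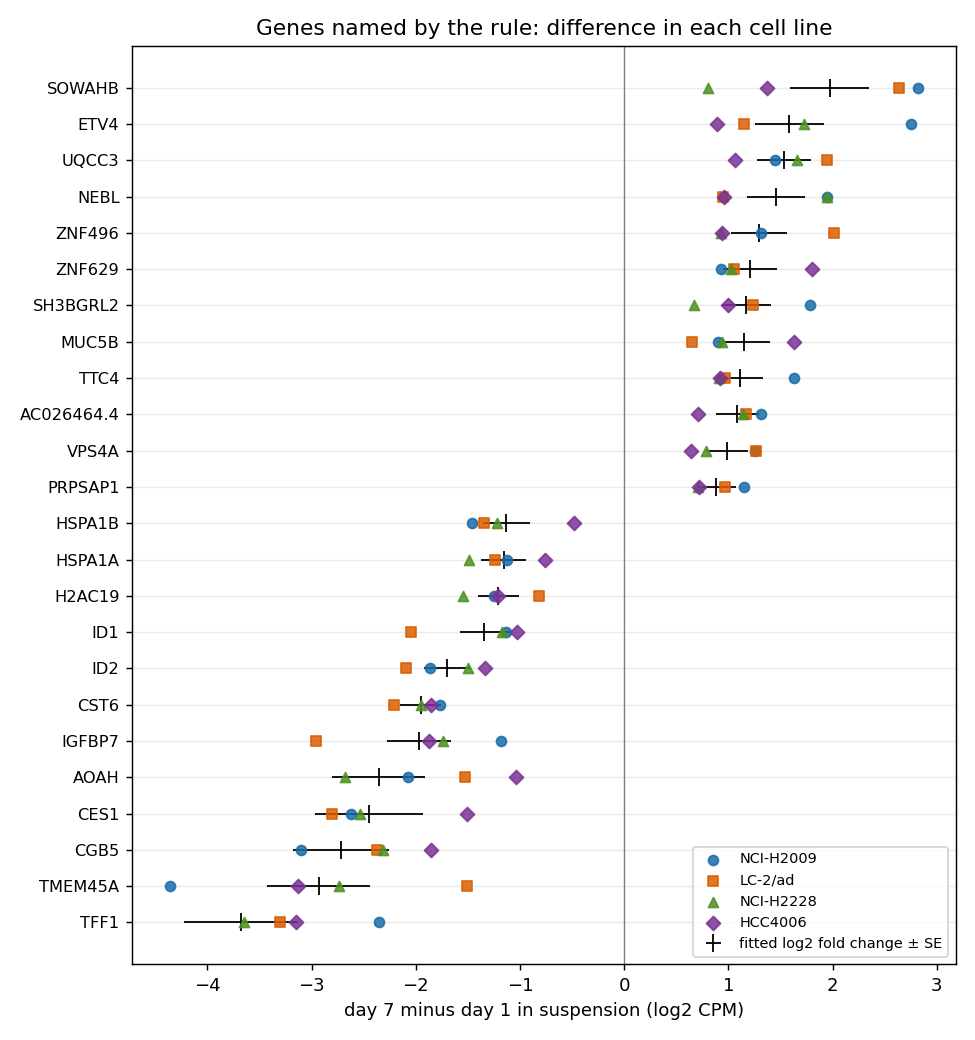
Difference of log2 CPM, day 7 minus day 1, in each cell line (symbols) for the 12 higher and 12 lower genes with the smallest unadjusted p and 1 sign in the 4 lines, with the fitted log2 fold change and its SE (black). None of the 24 passed the adjusted threshold, and their sign in each line was part of the rule that chose them.

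Immune presentation and complement genes split the lines. MHC class II genes had a median of 0.32 over 11 genes, with 0 at an unadjusted p under 0.05. The median was 0.17 without NCI-H2009, -0.29 without HCC4006 and -0.22 without the cell line block. The line medians were -1.07 in NCI-H2228, 1.13 in NCI-H2009, 1.83 in HCC4006 and 0.00 in LC-2/ad. HLA-DRB1, a chain that holds peptides for helper T cells, stood at 916 TPM in NCI-H2228, 1.75 TPM in NCI-H2009, 361 TPM in HCC4006 and 76.8 TPM in LC-2/ad at day 7, against 1669, 0.475, 49.7 and 57.4 TPM in the same lines at day 1. It was lower at day 7 in NCI-H2228 and higher in the other lines. Complement genes had a median of 0.23 over 14 genes, 0.01 without NCI-H2009, -0.22 without HCC4006 and -0.23 without the block, with line medians of -0.88 in NCI-H2228 and 2.22 in HCC4006. CFB, a protease of the alternative pathway, stood at 504 TPM in NCI-H2228, 134 TPM in NCI-H2009, 219.8 TPM in HCC4006 and 53.1 TPM in LC-2/ad at day 7, against 1414, 11.1, 43.2 and 50.01 TPM in the same lines at day 1. The difference was negative in NCI-H2228 and 0.20 in LC-2/ad. C1S, a protease of the classical pathway, was the 1 member lower at an unadjusted p under 0.05 (-0.95 ± 0.26). That count was near the 3.85% of all genes, and the level of C1S was almost all in NCI-H2228.

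Lists of surface, calcium-binding and barrier genes had medians on both sides of 0. The list of CEACAM and S100 genes had a median of -0.36 over 14 genes, with 5 lower and 1 higher at an unadjusted p under 0.05. S100A8, a subunit of calprotectin, stood at 36.9 TPM in NCI-H2228, 2.71 TPM in NCI-H2009, 0.268 TPM in HCC4006 and 19 TPM in LC-2/ad at day 7, against 672, 1.99, 0.822 and 45.2 TPM in the same lines at day 1, and the value in NCI-H2228 was far below its day 1 level, with a fitted value of -2.45 ± 0.74. S100A14 had -0.76 ± 0.23 and was lower in each line. Basal and squamous genes had a median of -0.35 over 9 genes, with 2 lower, among them SERPINB5, the serpin maspin (-1.03 ± 0.28), lower in each line. Tight junction genes had 0.23 over 15 genes, and 0.12 without NCI-H2009, with 1 higher at an unadjusted p under 0.05, close to the 3.99% of all genes. It was CGN, which codes for the junction protein cingulin (0.76 ± 0.26). Aryl hydrocarbon receptor and xenobiotic genes had 0.33 over 14 genes (0.07 without NCI-H2009) with 1 lower, and metallothioneins had 0.40 over 6 with 0 at an unadjusted p under 0.05. Among 13 iron genes (median -0.03, and 0.19 without NCI-H2009), STEAP4, a metal reductase, was higher in each line with 1.32 ± 0.29. Clustered histone genes had -0.46 over 16 genes, with 2 lower and 1 higher. CDK inhibitor and quiescence genes had -0.20 over 13 (-0.05 without NCI-H2009), with 2 lower and 1 higher. CDKN2A, a member at up to 897 TPM, was not tested. The unfolded protein response list had -0.13 over 16, with 1 lower, near the 3.85% of all genes. It was MANF, a factor of the endoplasmic reticulum (-0.97 ± 0.36, and -0.53 without NCI-H2009). Actin and SRF targets had -0.06 over 16 (0.07 without NCI-H2009), and nuclear-encoded respiratory chain genes -0.24 over 21 (-0.05 without NCI-H2009), each with 0 at an unadjusted p under 0.05.

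Several groups showed little shared difference. G2/M and mitosis genes had a median of 0.13 over 20 genes, with 1 higher and 0 lower at an unadjusted p under 0.05. The 1 higher, near the 3.99% of all genes, was CENPF, a kinetochore protein (1.21 ± 0.47, and 0.67 without NCI-H2009). DNA replication genes had -0.19 over 18 genes (-0.07 without NCI-H2009), with PCNA, the sliding clamp, at -0.56 ± 0.24 (-0.35 without NCI-H2009). The CHR motif TTTGAA was in 11 of 17 mitosis promoters (64.7%), against 15.2% of all. The ISRE motif was in 12 of 16 promoters of interferon-stimulated genes, against 3.57% of all. The AP-1 motif TGANTCA was in 2 of 17 matrix promoters (11.8%), against 7.71%. Interferon-stimulated genes had a median of -0.09 over 24 genes, MHC class I genes 0.04 over 12, BCL2 family genes 0.13 over 14 and YAP/TAZ targets -0.22 over 21. Without NCI-H2009 these medians were -0.22, -0.06, 0.05 and -0.03. Integrins and focal adhesion genes had 0.19 over 20. Cytosolic ribosomal protein genes had a median of -0.59, below 0 for all 24, but of -1.78 in NCI-H2009 and -0.22 without it, with 0 at an unadjusted p under 0.05. Ribosome biogenesis genes had 0.24 over 20 genes, 17 of them above 0. Mitochondrially encoded transcripts had -0.43 over 13 genes, from -1.20 in LC-2/ad to 0.55 in HCC4006, and -0.20 without NCI-H2009. Circadian and glucocorticoid genes had -0.34 over 15 (-0.18 without NCI-H2009), led by the clock genes PER1 (-1.64 ± 0.49, and -1.03 without NCI-H2009) and DBP (-1.34 ± 0.41, and -0.83).

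Some genes differed in 1 line far from the mean of the other lines, which 1 library per line and day cannot test. In HCC4006 the salivary-type cystatins CST1 and CST4 were at 7959 and 14301 TPM at day 7, against 857 and 1377 TPM at day 1. In NCI-H2228 the same genes were at 5.70 and 2.53 TPM at day 7, against 222 and 41.6 TPM at day 1. SLC34A2, the phosphate carrier of alveolar type 2 cells, stood at 395 TPM in NCI-H2228, 372 TPM in NCI-H2009, 2290.0 TPM in HCC4006 and 25.6 TPM in LC-2/ad at day 7, against 2677, 20.01, 936 and 1.28 TPM in the same lines at day 1. Its direction in NCI-H2228 was opposite to that in the other lines. In NCI-H2009, SMC4, a condensin subunit, was at 115 TPM at day 7 and 0.67 TPM at day 1, while the other lines stood between 63.7 and 125 TPM at day 7 and between 59.4 and 97.3 TPM at day 1. SAA1, an acute phase protein, was at 49.8 TPM at day 7 and 0.116 TPM at day 1 in NCI-H2009, but at 329.7 TPM at day 7 and 2753 TPM at day 1 in NCI-H2228. ANGPTL4, an inhibitor of lipoprotein lipase and a PPAR target, stood at 40.9 TPM in NCI-H2228, 38.9 TPM in NCI-H2009, 104 TPM in HCC4006 and 23.4 TPM in LC-2/ad at day 7, against 8.37, 51, 190.4 and 0.135 TPM in the same lines at day 1. It was higher at day 7 in LC-2/ad and NCI-H2228 and lower in NCI-H2009 and HCC4006. CEACAM6, an adhesion glycoprotein, stood at 167 TPM in NCI-H2228, 1825 TPM in NCI-H2009, 7109 TPM in HCC4006 and 783 TPM in LC-2/ad at day 7, against 528, 363, 8850.4 and 57.2 TPM in the same lines at day 1. It was higher at day 7 in LC-2/ad and NCI-H2009 and lower in NCI-H2228 and HCC4006. CYP1A1, an aryl hydrocarbon receptor target, stood at 0.026 TPM in NCI-H2228, 93.1 TPM in NCI-H2009, 40.9 TPM in HCC4006 and 839.7 TPM in LC-2/ad at day 7, against 0, 8.35, 135 and 71.5 TPM in the same lines at day 1. It was higher in LC-2/ad and NCI-H2009, lower in HCC4006 and close to none in NCI-H2228. MAP2K6, a kinase upstream of p38, stood at 35.6 TPM in NCI-H2228, 9.6 TPM in NCI-H2009, 0.446 TPM in HCC4006 and 2 TPM in LC-2/ad at day 7, against 3.57, 8.86, 0.446 and 10.5 TPM in the same lines at day 1. It was higher in NCI-H2228, lower in LC-2/ad and close to level in NCI-H2009. FGF19, a secreted growth factor, stood at 1.09 TPM in NCI-H2228, 0.314 TPM in NCI-H2009, 71.4 TPM in HCC4006 and 7.08 TPM in LC-2/ad at day 7, against 0.903, 1.35, 424 and 1.07 TPM in the same lines at day 1, so that most of it was in HCC4006.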

How the data were processed

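Per the labels' protocols, RNeasy-purified total RNA went into SMART-Seq v4 PLUS libraries, and GRCh38 is the build in the submitters' processing notes. Neither aligner, quantifier, annotation nor strand use is stated in these sources. The authors deposited an estimated count and a TPM value, scaled by transcript length, for each of 60715 genes, and 31.5% of the estimated counts above 0 are not whole. There were no molecular identifiers, so depth describes counting precision only.

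The estimated counts were rounded, and edgeR 4.0.16 (R 4.3.3) was run on the 8 libraries with filterByExpr by day (16336 genes kept), TMM factors, and a robust quasi-likelihood fit of day with cell line as a block. This left 3 residual degrees of freedom, with a biological coefficient of variation of 40.3%. P-values were adjusted by the Benjamini-Hochberg method across the 16336 genes. The SE of a log2 fold change comes from its F statistic and so restates the test. Single-line differences use log2 CPM (prior count 2). Pairing rests on the cell line itself: libraries of 1 line deviated together (correlations 0.72 to 0.80), and those of different lines did not (-0.37 to -0.10). The alternatives were no block, the 12 libraries, DESeq2 size factors, no filter, DESeq2 1.42.0, limma 3.58.1 on log2(TPM + 1) and log2(TPM + 0.1), edgeR's legacy method, and each line left out.

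The members, the 47 gene lists (714 of 772 genes tested) and the rules were chosen with earlier results of these data known. Some untested list members had high TPM in 1 or more libraries. Among them were SCGB3A1 (up to 4338 TPM), CDKN2A (up to 897 TPM) and HLA-DQA1 (up to 161 TPM). Single genes were taken by this rule: protein-coding, past the threshold, 1 sign across lines, mean TPM no lower than 5 on the higher day, and 12 in each direction, filled up by the smallest unadjusted p since none passed. From each list up to 4 members of smallest p could be named. Within a line, the rule took the 3 largest differences in each direction relative to the other lines (log2(TPM + 1), 10 TPM or more). Genes outside these rules are named only as markers or overlapping genes.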

Additional observations from a re-analysis of the deposited data

Results flagged for a closer look

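With 4 lines, a value far from the other 3 was looked for in 71 groups (47 lists and 24 genes). For independent groups chance gives such a gap in about 1 group in 20. These groups share genes and libraries, and the 24 genes were chosen from these data for 1 sign in the 4 lines. The count found, 8, can therefore not be set against that rate. Lists of cell functions and marker sets differed in 1 line. Alveolar type 2 genes had a median difference of -1.21 in NCI-H2228, against 0.62 to 0.94 in the other lines. The leukocyte markers stood at -2.04 in NCI-H2228, against -0.79 to -0.69, and the fibroblast markers at -1.98 in NCI-H2228, against -0.70 to -0.46. Nuclear-encoded respiratory chain genes stood at -0.83 in NCI-H2009, against -0.09 to 0.03, and this is the line whose day 1 library stood apart. Integrin and focal adhesion genes stood at 0.48 in LC-2/ad, against 0.02 to 0.06. Among single genes, TTC4 differed by 1.63 in NCI-H2009, against 0.91 to 0.97, ZNF629 by 1.81 in HCC4006, against 0.93 to 1.05, and ID1 by -2.04 in LC-2/ad, against -1.17 to -1.03. None of these differences between lines was tested.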

How the results depend on the processing

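No gene passed in edgeR or limma under any alternative run, while DESeq2 called 92. The count at least 2-fold in each line was 53, 36 with a prior count of 5 and 7 on log2(TPM + 1). Without the replicate block, fitted values changed sign for CXCL2 (-0.25), CXCL1 (-2.11), HLA-DRB1 (-0.47), HLA-DPA1 (-0.029), C3 (-0.82), CFB (-0.91) and PECAM1 (-0.077), and the medians of metallothioneins (-0.021), CDK inhibitors (-0.10) and endothelial markers (-0.077) moved. KRT16 ran from -1.55 to 0.19 with 1 line left out. Leaving out 1 line, the medians ran from -0.16 to 0.32 for iron handling, -0.30 to -0.049 for CDK inhibitors, -0.65 to -0.21 for TGF-beta and BMP targets, and -1.31 to -0.061 for leukocyte markers. On log2(TPM + 1) and log2(TPM + 0.1), whose medians over genes lie higher at day 7 in NCI-H2009, the medians were 0.044 on both scales for heat shock, 0.18 and 0.18 for iron handling, 0.053 and 0.054 for autophagy, 0.15 and 0.15 for CDK inhibitors, -0.24 and -0.30 for TGF-beta and BMP targets, and -0.25 and -0.26 for matrix genes. With 1 line left out, medians changed sign for the lists of fatty acid oxidation, ATF4, p53, NRF2, iron, NF-kappaB, immediate early, interferon, actin, complement, and MHC class I and II genes. Without the block they did so for ATF4, metallothionein, NF-kappaB, immediate early, complement, MHC class I and II, and endothelial genes, with DESeq2 for NRF2 targets, and on the TPM scales for fatty acid oxidation, unfolded protein response, ATF4, heat shock, iron, interferon, autophagy, DNA replication, CDK inhibitor and actin genes. Across alternatives, 543 list medians moved by less than the spread between lines and 21 by more. Of the single-gene values, 2347 kept their direction and side of the threshold, 32 passed it with DESeq2, and 9 changed sign. With 1 library per line and day, differences within a line and counts below about 1 TPM are the least certain.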
